A study of Mus musculus with 8 samples.

Results

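The comparison set the polyadenylated RNA of resting B cells against that of resting T cells, both from spleens of B6 mice. Its members were the 4 RNA-seq libraries in a series of 8 samples. They are B cell libraries 1 and 3 and T cell libraries 1 and 4, numbered as the submitters numbered them. Each cell type was taken whole from the spleen with a Miltenyi magnetic sorting kit and then held in complete RPMI medium for 2 hours. No stimulus, drug, transgene or altered allele is named for either group. The labels give no age or sex of the mice, and they do not say whether the sort bound the wanted or the unwanted cells. Nor do they tie each library to its own animal, and the p-values measure only how these libraries spread.

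B cells and T cells are the lymphocytes of adaptive immunity. A B cell recognises antigen with a membrane immunoglobulin that signals through CD79A and CD79B, and a T cell with a T cell receptor that signals through the CD3 chains. Inside the cell both receptors pass the signal on through related kinases, adaptors, phospholipases and exchange factors, and each lineage often uses its own member of a gene family. Resting lymphocytes of both kinds are small, divide little and travel between blood, spleen and lymph nodes until they meet antigen.

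The libraries held 8945905 to 10050986 counts in genes. Levels below are CPM, a count relative to the TMM-scaled library total, and are always given for B cell libraries 1 and 3 and then for T cell libraries 1 and 4. A log2 difference is B minus T cells from the fit, with its standard error after ±, and n is 2 libraries per group throughout. A gene is called, and is described as higher or lower, where its adjusted p in edgeR's quasi-likelihood test was under 0.05. Levels were not divided by gene length, so they are compared between libraries and not between genes.

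The labelled cell types carried their own markers. Cd79a, a signalling chain of the B cell receptor (ENSMUSG00000003379, chromosome 7, 24897497 to 24901858 in GRCm38.p6), had 3533 and 3402 CPM in B cells against 24.4 and 46.8 in T cells (log2 difference 6.61 ± 0.44, adjusted p = 0.00335). Cd79b, its partner chain, had 1731 and 2060.0 CPM in B cells against 25.6 and 41.0 in T cells (log2 difference 5.83 ± 0.35, adjusted p = 0.00284). On the T cell side, Cd8a, a chain of the coreceptor of cytotoxic T cells, had 0.449 and 39.8 CPM in B cells against 286 and 457 in T cells (adjusted p = 0.157). Thy1, a surface protein of mouse T cells, had 0.786 and 91.7 CPM in B cells against 827 and 949.6 in T cells (adjusted p = 0.189). The T cell libraries were above the B cell libraries for both genes, but neither was called, and B cell library 3 lay far above B cell library 1. Of other T cell markers, Lck and Cd247, described below, were called lower in B cells (adjusted p = 0.024 and 0.040), and Cd3e was not called. In bulk RNA, a small share of cells of another type cannot be told apart from a low level of the same RNA in all cells.

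The 4 libraries also fell into another pair of pairs that cuts across the cell types. B cell library 1 and T cell library 1 had 2362 and 1437 counts of Xist, the RNA of the inactive X chromosome, against 2 and 3 in B cell library 3 and T cell library 4. Summed counts of 4 genes of the Y chromosome were 8 and 6 in the libraries numbered 1 and 1616 and 1575 in the others. By these genes the libraries of a cell type came from mice of different sex, so they were not repeats of 1 animal, and sex cannot be told apart from other differences between them. The heat shock gene Hspa1b had 555 and 2.62 CPM in B cells against 739 and 2.11 in T cells, and Mpo, myeloperoxidase of myeloid granules, had 69.7 and 0 CPM in B cells against 91.5 and 0.845 in T cells. Both were high in the libraries numbered 1. C1qb, a complement chain made by macrophages, had 0.112 and 28.9 CPM in B cells against 0.305 and 88.3 in T cells, and the iron exporter gene Slc40a1 had 0.673 and 26.2 CPM in B cells against 0.203 and 112 in T cells. These were high in B cell library 3 and T cell library 4. Over 9125 genes with a mean of at least 10 CPM, the log2 ratio of B cell library 3 to library 1 and that of T cell library 4 to library 1 had a Pearson's r of 0.56 and a Spearman's rank correlation of 0.53. These are across genes, which are not independent replicates, and no library enters both ratios.

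**Figure D1:**
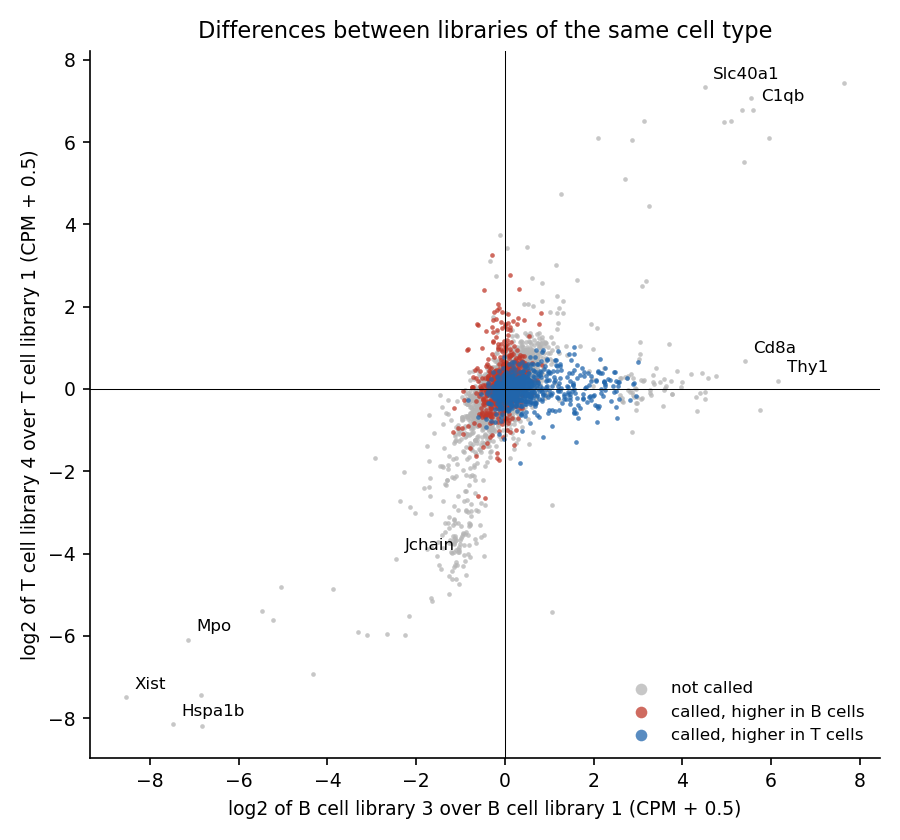
Each point is 1 of 9125 genes with a mean of at least 10 CPM. The x axis is the log2 ratio of B cell library 3 to B cell library 1 and the y axis that of T cell library 4 to T cell library 1, with 0.5 CPM added. Red and blue points were called higher in B and in T cells and grey points were not called. Xist, Hspa1b and Mpo lie at the lower left and C1qb and Slc40a1 at the upper right, while Cd8a and Thy1 lie along the x axis.

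A separate arm of genes differed between the B cell libraries alone. At least 4-fold higher in B cell library 3 than in library 1 were 125 genes, of which 16 were also at least 4-fold higher in T cell library 4 than in T cell library 1. For all 125 the T cell mean was at least 4-fold above B cell library 1. Called higher in T cells were 44 of the 125, and 15 were T cell receptor genes. In the other direction, 20 of the 21 genes at least 4-fold lower in B cell library 3 than in library 1 were also at least 4-fold lower in T cell library 4 than in T cell library 1. Between the T cell libraries 140 genes were at least 4-fold lower in library 4, and 99 of these were immunoglobulin genes. These library differences enter the spread of the test, and their part in each result below was not tested beyond the fits without each library.

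Of 13929 genes tested, 18.5% were called. Higher in B cells were 1310 genes, or 9.40%, and lower were 1262, or 9.06%, and these shares are the background for every list below. The median log2 difference of all genes tested was -0.01 and the median absolute difference 0.40. By a log2 of at least 5, 181 called genes were higher in B cells and 38 lower in the fit of all 4 libraries. The larger side depended on B cell library 3: leaving it out gave 143 higher and 300 lower, and leaving out B cell library 1 gave 141 and 9. With T cell library 1 or 4 left out the counts were 226 and 30 or 201 and 29. Genes were also banded by their mean in the cell type where it was larger. At 100 CPM or more 28.5% were called, at 10 to 100 CPM 18.0%, and at 1 to 10 CPM 14.1%. Protein-coding genes were called in 19.2% of cases, long noncoding RNA genes in 17.3% and pseudogenes in 7.11%.

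Genes with large differences towards T cells mostly had a higher level in B cell library 3 than in library 1. Among 464 genes tested with a log2 difference of -2 or below and at least 10 CPM in T cells, 439 were higher in B cell library 3 than in library 1. Their median level was 5.25% of the T cell mean in B cell library 1 and 14.6% in library 3. The 449 genes with a log2 difference of 2 or above and at least 10 CPM in B cells showed no such split. Their median was 8.82% of the B cell mean in T cell library 1 and 7.28% in library 4, and 253 were higher in library 4. All genes called lower in B cells had a median level of 20.5% of the T cell mean in B cell library 1. In B cell library 3 it was 26.2%. For all genes called higher, T cell libraries 1 and 4 had medians of 25.7% and 25.5% of the B cell mean. Called were 367 of the 464 and 403 of the 449. Leaving out B cell library 1 gave 757 higher and 698 lower genes in all, and leaving out B cell library 3 gave 737 and 889. The counts were 1090 and 809 with T cell library 1 left out and 1019 and 954 with T cell library 4 left out.

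**Figure D2:**
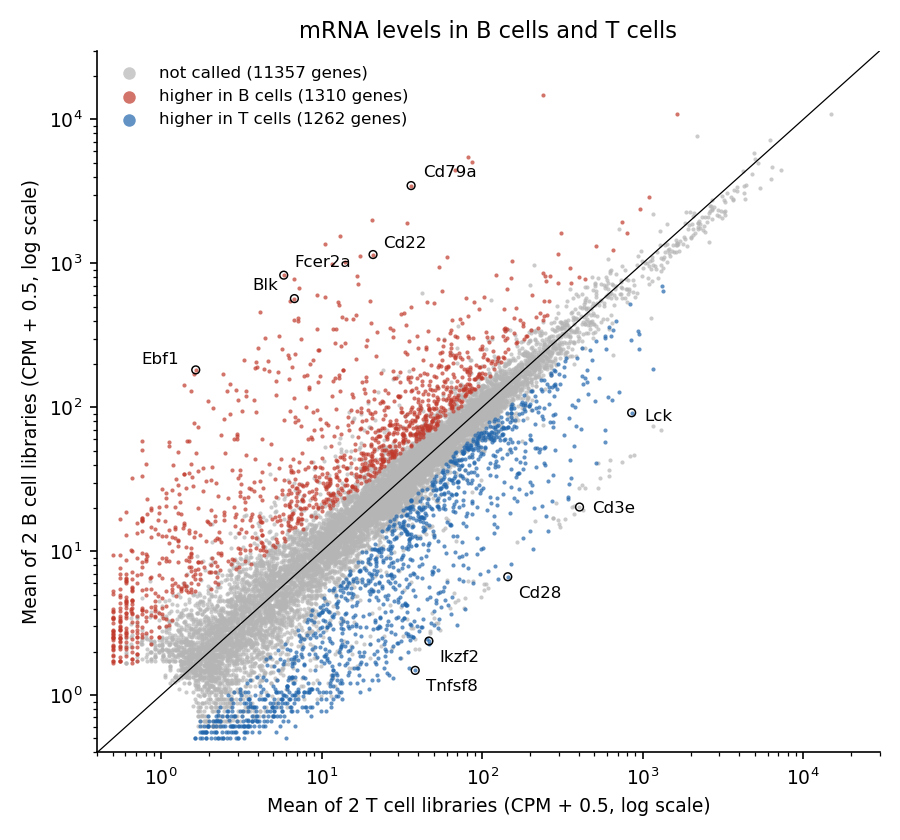
Each point is 1 of 13929 genes tested, with the mean of the T cell libraries on the x axis and of the B cell libraries on the y axis, in CPM with 0.5 added, on log scales. Red points were called higher in B cells, blue points higher in T cells, and grey points were not called; the line marks equal levels. Genes such as Cd79a, Blk and Ebf1 lie further from the line than Cd28, Ikzf2 or Tnfsf8, and Cd3e lies below the line among grey points.

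Several of the 15 protein-coding genes with the largest differences towards B cells act at the cell surface. Cr2 (CD21, complement receptor 2; chromosome 1, 195136811 to 195176880) had 538 and 385 CPM in B cells against 0.813 and 6.45 in T cells (log2 difference 6.99 ± 0.98, adjusted p = 0.0153). Cd40, the receptor through which T cells help B cells (chromosome 2, 165055614 to 165071654), had 124 and 135 CPM in B cells against 0.610 and 1.48 in T cells (log2 difference 6.94 ± 0.35, adjusted p = 0.00209). Siglecg, an inhibitory lectin that binds sialic acid, had 498 and 604 CPM in B cells against 3.86 and 7.92 in T cells (log2 difference 6.54 ± 0.44, adjusted p = 0.00340). For all of these the T cell libraries were at a small fraction of the B cell libraries, with no overlap. Scd1, a desaturase that makes monounsaturated fatty acids, had 829.9 and 734 CPM in B cells against 3.15 and 9.40 in T cells (log2 difference 6.96 ± 0.63, adjusted p = 0.00622). The kinase gene Srpk3 had 153 and 189 CPM in B cells against 0.813 and 1.37 in T cells. Scn4a, a sodium channel gene known from muscle, had 39.2 and 40.1 CPM in B cells against 0.407 and 0.211 in T cells (log2 difference 6.94 ± 0.31, adjusted p = 0.00201). Its annotated end lies 2983 bases from Cd79b, which was called in the same direction, and reads that run from 1 gene into the other were not tested for.

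Of the 15 genes with the largest differences towards T cells, 6 were at 0 counts in B cell library 1 and above 0 in library 3, among them Rora, a nuclear receptor, with 0 and 1.09 CPM in B cells against 18.7 and 15.2 in T cells (log2 difference -4.91 ± 1.0, adjusted p = 0.0347). Ptpn13, a tyrosine phosphatase, had 0.449 and 0.437 CPM in B cells against 15.2 and 10.7 in T cells (log2 difference -4.83 ± 0.40, adjusted p = 0.00517), with both B cell libraries alike. Galnt9, which starts O-linked glycans, had 0.112 and 0.437 CPM in B cells against 11.1 and 9.19 in T cells (log2 difference -5.13 ± 0.58, adjusted p = 0.00960). Ntrk3, the receptor of neurotrophin 3, had 0.112 and 1.09 CPM in B cells against 17.5 and 20.7 in T cells (log2 difference -4.95 ± 0.75, adjusted p = 0.0178). Ikzf2, which encodes the transcription factor Helios (chromosome 1, 69531207 to 69687351), had 1.35 and 2.40 CPM in B cells against 55.1 and 37.1 in T cells (log2 difference -4.61 ± 0.39, adjusted p = 0.00549). In Ptpn13 and Ikzf2 the B cell libraries lay closer together than in Rora. Ppic and Lypd6b, also among the 15, lost their calls without T cell library 1 (adjusted p = 0.0674 and 0.0579).

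Of 302 named genes with a place in the RefSeq annotation, 149 overlap another annotated gene and 17 overlap one called in the same direction. Cd72 overlaps Tesk1, Gngt2 overlaps Abi3 and Fcer2a overlaps Trappc5 in this way. The sources used here do not give the use of strand in counting, so reads of such pairs cannot be told apart. The members named below passed the test without each library in turn unless the text says otherwise. Counts without each library are given in the order B cell library 1, B cell library 3, T cell library 1 and T cell library 4. When a B cell library is left out, the test no longer sees how far apart those libraries lay.

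The antigen receptor lists had the largest medians of all lists in either direction. In the B cell receptor list, of the 18 tested, 17 were higher and 0 lower in B cells (median 5.62), or 17, 18, 17 and 17 higher and 0, 0, 0 and 0 lower without each library in turn. The exception was the adaptor gene Dapp1, at 0.91 ± 0.23 (adjusted p = 0.0572). Plcg2, the phospholipase that cleaves membrane phosphoinositide in B cells, had 362 and 339.7 CPM in B cells against 11.9 and 11.7 in T cells (log2 difference 4.89 ± 0.16, adjusted p = 0.00127). Cd81, a tetraspanin of the B cell coreceptor complex, had 184 and 165 CPM in B cells against 19.7 and 40.5 in T cells (log2 difference 2.54 ± 0.37, adjusted p = 0.0163). Cd72, an inhibitory lectin, had 537 and 539 CPM in B cells against 83.6 and 92.5 in T cells (log2 difference 2.61 ± 0.16, adjusted p = 0.00290). The log2 differences of both were smaller than that of Cd79a.

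In the T cell receptor list, of the 22 tested, 0 were higher and 7 lower in B cells (median -4.07), or 0, 0, 0 and 0 higher and 20, 21, 5 and 7 lower without each library in turn. At an unadjusted p under 0.05, 20 members were lower and 0 higher, and DESeq2 called 16 lower and 0 higher. With a term for the libraries numbered 1 in the fit, which leaves 1 residual degree of freedom, 18 were lower. The median moved to -3.15 when B cell library 1 was left out and to -6.75 when library 3 was. Lck, the kinase that starts T cell receptor signalling (chromosome 4, 129548344 to 129573641), had 46.5 and 136 CPM in B cells against 826 and 881 in T cells (log2 difference -3.23 ± 0.56, adjusted p = 0.0243). Trat1, an adaptor of the receptor complex, had 0.112 and 1.42 CPM in B cells against 27.4 and 16.7 in T cells (log2 difference -4.81 ± 0.86, adjusted p = 0.0256). Txk, a Tec kinase, had 1.91 and 11 CPM in B cells against 79.8 and 113 in T cells (log2 difference -3.89 ± 0.78, adjusted p = 0.0335). Cd4, the coreceptor of helper T cells, had 3.14 and 34.8 CPM in B cells against 439 and 412 in T cells (adjusted p = 0.0571), in which the T cell libraries agreed and the B cell libraries did not. Skap1, an adaptor, and Cd247, the zeta chain, were called in the fit of all 4 libraries (-3.92 ± 0.88 and -3.59 ± 0.77) and lost the call without T cell library 1 (adjusted p = 0.0560 and 0.0549).

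Several gene families that transmit the receptor signal held members of both directions. Of the Src family kinases, which phosphorylate the receptor chains, Blk (chromosome 14, 63372837 to 63417187) had 572 and 565 CPM in B cells against 3.66 and 8.88 in T cells (log2 difference 6.50 ± 0.51, adjusted p = 0.00458). Lyn, the main Src kinase of many B cells, had 269.7 and 292 CPM in B cells against 7.01 and 19.9 in T cells (log2 difference 4.39 ± 0.54, adjusted p = 0.0114). Fyn, which works beside Lck, had 54.9 and 91.6 CPM in B cells against 406 and 365 in T cells (log2 difference -2.39 ± 0.29, adjusted p = 0.0111). Thus 3 members were higher in B cells and 2 lower among 7 tested. Fgr had 29.6 and 46.7 CPM in B cells against 8.74 and 20.4 in T cells (adjusted p = 0.119). Src had 0.337 and 1.20 CPM in B cells against 2.95 and 3.38 in T cells (adjusted p = 0.103). Yes1 was below the filter.

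Among the kinases that bind the phosphorylated chains, Syk (chromosome 13, 52582610 to 52648792) had 750.2 and 690.3 CPM in B cells against 11.8 and 20.7 in T cells (log2 difference 5.47 ± 0.36, adjusted p = 0.00323). Its T cell counterpart Zap70 (chromosome 1, 36761798 to 36782821) had 5.28 and 37.0 CPM in B cells against 259 and 315 in T cells (-3.76 ± 0.92, adjusted p = 0.0541). The groups did not overlap for either gene, but Zap70 was not called, with B cell library 3 above library 1. The adaptors showed the same layout: Blnk, the B cell adaptor, had 430.1 and 362 CPM in B cells against 6.51 and 6.66 in T cells (log2 difference 5.91 ± 0.19, adjusted p = 0.00127). Lcp2, which encodes the T cell adaptor SLP-76, had 3.48 and 29.4 CPM in B cells against 296 and 257 in T cells (adjusted p = 0.0529). Clnk was below the filter. Of the Tec kinases, which activate the phospholipases, Btk had 187 and 179.7 CPM in B cells against 3.25 and 4.54 in T cells (log2 difference 5.55 ± 0.21, adjusted p = 0.00168). Tec had 145 and 118 CPM in B cells against 22.2 and 26.6 in T cells (log2 difference 2.43 ± 0.17, adjusted p = 0.00372). Zap70 and Lcp2 were called lower when either B cell library was left out.

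The phospholipases C gamma were called in opposite directions: Plcg1, the T cell form, had 31.2 and 47.1 CPM in B cells against 272 and 218 in T cells (log2 difference -2.65 ± 0.26, adjusted p = 0.00763), against the values of Plcg2 above. For the Vav exchange factors, which act on the actin skeleton, a single member was called. Vav2 had 125 and 108 CPM in B cells against 12.7 and 17.8 in T cells (log2 difference 2.93 ± 0.21, adjusted p = 0.00374). Vav1, the form of all blood cells, had 201 and 199 CPM in B cells against 170.0 and 183 in T cells (adjusted p = 0.432). Vav3 had 11.7 and 9.95 CPM in B cells against 11.7 and 9.40 in T cells (adjusted p = 0.942). Vav1 and Vav3 were at like levels in the 4 libraries.

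Among the protein kinases C, 3 were higher in B cells and 2 lower among 8 tested. Prkcb, which links the B cell receptor to NF-kappaB, had 233 and 249 CPM in B cells against 49.7 and 75.7 in T cells (log2 difference 1.94 ± 0.24, adjusted p = 0.0115). Prkcd had 220.0 and 253 CPM in B cells against 57.0 and 51.6 in T cells (log2 difference 2.12 ± 0.15, adjusted p = 0.00372). Prkce had 65.8 and 59.4 CPM in B cells against 12.3 and 10.6 in T cells (log2 difference 2.45 ± 0.17, adjusted p = 0.00369). The 3 kept a level of 10.6 CPM or more in every T cell library. Prkcq, the isoform of the T cell synapse, had 2.25 and 37.1 CPM in B cells against 376 and 345 in T cells (adjusted p = 0.0842). Prkch had 3.37 and 29.7 CPM in B cells against 307 and 244 in T cells (adjusted p = 0.0563). In both of these B cell library 1 was near 0 and library 3 was not, and either was called when a B cell library was left out. Prkca (-1.18 ± 0.21) lost its call without B cell library 3 or T cell library 1 (adjusted p up to 0.0924). Prkcz (-1.26 ± 0.23) lost it without any library but T cell library 4 (up to 0.103).

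Of the factors that load Ras with GTP, Rasgrp3 had 128 and 131 CPM in B cells against 1.52 and 2.64 in T cells (log2 difference 5.95 ± 0.27, adjusted p = 0.00201). Rasgrp2, which acts on Rap1, had 350.2 and 406 CPM in B cells against 341 and 330.3 in T cells (adjusted p = 0.532). Rasgrp4 had 32.2 and 37.4 CPM in B cells against 36.1 and 41.7 in T cells (adjusted p = 0.583). Rasgrp3 was thus the member with a clear B cell excess, and Rasgrp2 and Rasgrp4 had overlapping or near levels. Rasgrp1, the form that T cells depend on, had 128 and 137 CPM in B cells against 231 and 231 in T cells (log2 difference -0.80 ± 0.13, adjusted p = 0.0220), and the GTPase activator gene Rasal3 had 260.2 and 344 CPM in B cells against 602 and 567 in T cells (log2 difference -0.95 ± 0.20, adjusted p = 0.0373). These were modest differences without overlap, and both calls were lost without any 1 of the 4 libraries (adjusted p up to 0.103 and 0.134). Sos1, Sos2, Rasa2 and Rasa3, which are broadly used regulators of Ras, were at adjusted p = 0.728, 0.463, 0.859 and 0.995. Rasa1 (-0.76 ± 0.18, adjusted p = 0.0517) and Rasal1 (0.74 ± 0.19, adjusted p = 0.0590) were not called either.

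Of the genes tested for kinases that make phosphoinositide 3-phosphates, with the inhibitor Pik3ip1 among them, 41.7% were called, against 18.5% of all genes tested. Pik3c2b, a class II enzyme, had 125 and 107 CPM in B cells against 5.18 and 7.18 in T cells (log2 difference 4.23 ± 0.22, adjusted p = 0.00212). Pik3r5, the adaptor of the form that G proteins activate, had 29.9 and 34.8 CPM in B cells against 167 and 159 in T cells (log2 difference -2.33 ± 0.14, adjusted p = 0.00284). The catalytic subunit gene Pik3cg, which pairs with it, had 59.9 and 62.3 CPM in B cells against 51.3 and 39.8 in T cells (adjusted p = 0.159). The groups were separate for Pik3r5 and close for Pik3cg. Pik3cd, the catalytic subunit of leukocytes, had 322 and 368 CPM in B cells against 703 and 612 in T cells (log2 difference -0.93 ± 0.17, adjusted p = 0.0287), and lost its call without any library but T cell library 4 (adjusted p up to 0.122). Pik3ip1, an inhibitor of the kinase, stood at -0.94 ± 0.15 and lost its call without B cell library 3 (adjusted p = 0.0848). Pik3cb, a catalytic subunit gene, stood at -2.48 ± 0.54 and lost its call without any library but B cell library 3. In all, of the 12 members tested, 1 was higher and 4 were lower in B cells, and Pik3ip1 is among the 4.

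**Figure D3:**
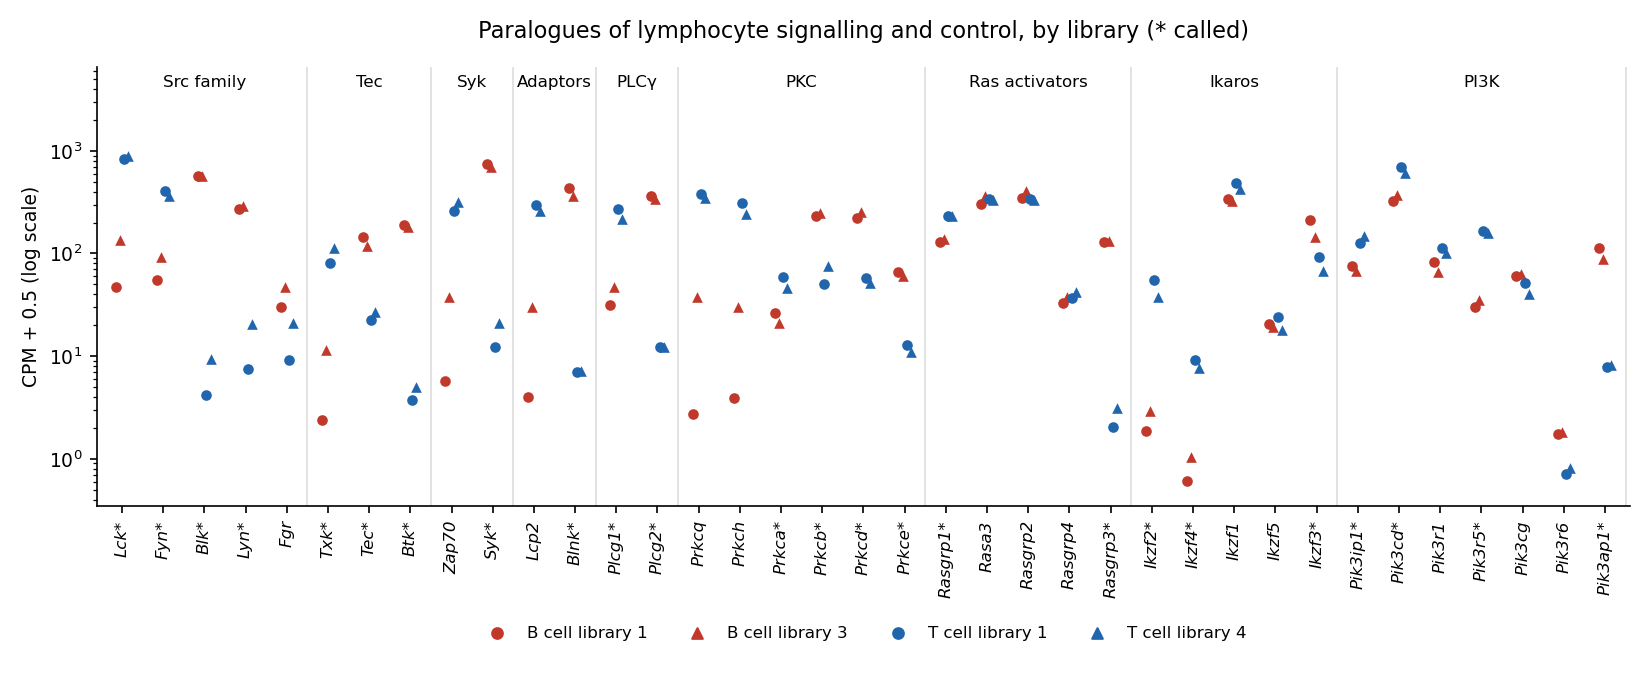
Levels of selected paralogues in each library, in CPM with 0.5 added, on a log scale. Red points are B cell libraries and blue points T cell libraries, with circles for the libraries numbered 1 and triangles for B cell library 3 and T cell library 4; an asterisk marks a called gene. Syk and Zap70, Blnk and Lcp2, and Plcg2 and Plcg1 swap sides, and the B cell circle lies below the B cell triangle for Zap70, Lcp2, Prkcq and Prkch.

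Transcription factors of the B lineage were called almost throughout. Of the 22 tested, 20 were higher and 1 lower in B cells (median 3.66), or 18, 17, 19 and 19 higher and 1, 1, 1 and 1 lower without each library in turn. Mef2c, which supports survival of stimulated B cells, had 271 and 241 CPM in B cells against 3.35 and 3.70 in T cells (log2 difference 6.18 ± 0.17, adjusted p = 0.00127). Tcf4, an E protein, had 85.9 and 83.3 CPM in B cells against 8.95 and 3.70 in T cells (log2 difference 3.74 ± 0.43, adjusted p = 0.0102). Its relative Tcf3 had 320.0 and 355 CPM in B cells against 132 and 143 in T cells (log2 difference 1.30 ± 0.15, adjusted p = 0.0102). Tcf4 was at a low level in T cells, whereas Tcf3 was present in both lineages. The member lower in B cells was Klf3, a repressor, with 78.5 and 83.6 CPM in B cells against 187 and 173 in T cells (log2 difference -1.15 ± 0.13, adjusted p = 0.00939). Spic, a factor also of splenic macrophages, was not called (adjusted p = 0.722). Bcl6, the factor of germinal centre B cells, had 61.1 and 49.5 CPM in B cells against 14.3 and 16.9 in T cells (log2 difference 1.82 ± 0.19, adjusted p = 0.00874).

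Among T lineage factors, of the 24 tested, 0 were higher and 13 lower in B cells (median -2.74), or 0, 0, 0 and 0 higher and 15, 17, 12 and 12 lower without each library in turn. At an unadjusted p under 0.05, 19 were lower and 0 higher, and DESeq2 called 17 lower and 0 higher. Lef1, a partner of beta-catenin in naive T cells, had 7.41 and 39.0 CPM in B cells against 315 and 369.6 in T cells (log2 difference -3.88 ± 0.82, adjusted p = 0.0378). Gata3, the factor of helper T cells, had 0.673 and 6.23 CPM in B cells against 96.8 and 59.6 in T cells (log2 difference -4.49 ± 0.91, adjusted p = 0.0347). Id2, an inhibitor of E proteins, had 19.0 and 29.9 CPM in B cells against 209 and 164 in T cells (log2 difference -2.93 ± 0.28, adjusted p = 0.00705). Id3 had 70.4 and 63.2 CPM in B cells against 79.7 and 73.4 in T cells (adjusted p = 0.346). Tcf7, which encodes TCF-1, had 8.98 and 129 CPM in B cells against 1363 and 1254 in T cells (-4.25 ± 1.26, adjusted p = 0.0868) with B cell library 3 far above library 1. It was called lower when either B cell library was left out. The Ikaros family was split as well. Ikzf4 had 0.112 and 0.547 CPM in B cells against 8.64 and 7.18 in T cells (log2 difference -4.52 ± 0.65, adjusted p = 0.0156) and Ikzf1, or Ikaros, had 339 and 321 CPM in B cells against 483 and 426 in T cells (adjusted p = 0.121). Ikzf3, or Aiolos, had 212 and 145 CPM in B cells against 92.9 and 67.7 in T cells (1.15 ± 0.26) and lost its call without B cell library 1 or T cell library 4 (adjusted p up to 0.128).

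Promoter windows of the called genes were searched for sites of lineage factors. The windows run from 250 bases before to 50 bases after each RefSeq start site of GRCm38.p6. Both strands were searched for 6 motifs, among them ATGCAAAT, the octamer bound by OCT2 and its coactivator OBF1, and for GAGGAAGT, a site of PU.1. The octamer was in 2.23% of 1166 windows of genes higher in B cells, 1.40% of 1141 windows of genes lower in B cells, 1.17% of 9472 windows of genes tested and not called, and 1.74% of all 32851 windows. The PU.1 site was in 5.32%, 3.94%, 2.97% and 3.20% of the same windows. CTTTGAT, a site of TCF and LEF factors, was in 1.89%, 2.28%, 2.66% and 3.73%. The EBF core, CCCNNGGG, was in 20.7%, 21.2%, 17% and 13.7%. The letters AGATAA, bound by GATA factors, were in 7.29%, 7.89%, 6.44% and 11.2%, and TGTGGT, a RUNX site, in 13.1%, 13.3%, 12.8% and 16.8%. The EBF, GATA and RUNX sites thus had nearly the same share among genes higher and lower in B cells. The octamer and the PU.1 site had their largest share among the genes higher in B cells, and the TCF site had its largest share over all windows. Mean GC was 59.9%, 60.6%, 60.4% and 53.8% in the same order. A match is a run of letters and not a measured site. The windows below, with the octamer or its reverse complement in capitals, belong to the first 4 of 12 genes ranked by their difference. The 12 hold the octamer and were higher in B cells, without overlap and with at least 10 CPM. They are not a complete ranking, and other called genes that hold it may have larger differences. Vpreb3, a surrogate light chain relative, is at chr10:75948050-75948349, plus strand, and the adaptor gene Blnk at chr19:40994172-40994471, minus strand. Tlr9, a receptor for DNA in endosomes, is at chr9:106222348-106222647, plus strand, and the chemokine receptor gene Ccr6 at chr17:8235793-8236092, plus strand.
Vpreb3: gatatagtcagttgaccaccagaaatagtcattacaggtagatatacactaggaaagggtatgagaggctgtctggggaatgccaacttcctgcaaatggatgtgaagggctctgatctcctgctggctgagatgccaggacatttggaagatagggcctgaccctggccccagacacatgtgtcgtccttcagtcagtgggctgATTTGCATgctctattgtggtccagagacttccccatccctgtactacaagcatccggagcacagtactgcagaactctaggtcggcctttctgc
Blnk: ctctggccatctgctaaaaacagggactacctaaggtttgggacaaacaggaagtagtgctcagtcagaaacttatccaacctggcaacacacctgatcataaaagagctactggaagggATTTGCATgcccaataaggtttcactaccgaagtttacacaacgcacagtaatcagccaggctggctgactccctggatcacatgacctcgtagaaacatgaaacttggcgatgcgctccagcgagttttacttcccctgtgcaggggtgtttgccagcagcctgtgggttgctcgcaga
Tlr9: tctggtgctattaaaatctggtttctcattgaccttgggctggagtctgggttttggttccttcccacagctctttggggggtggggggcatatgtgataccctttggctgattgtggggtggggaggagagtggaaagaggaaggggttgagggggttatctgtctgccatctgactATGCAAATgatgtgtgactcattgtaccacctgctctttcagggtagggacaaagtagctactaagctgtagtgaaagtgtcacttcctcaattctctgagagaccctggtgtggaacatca
Ccr6: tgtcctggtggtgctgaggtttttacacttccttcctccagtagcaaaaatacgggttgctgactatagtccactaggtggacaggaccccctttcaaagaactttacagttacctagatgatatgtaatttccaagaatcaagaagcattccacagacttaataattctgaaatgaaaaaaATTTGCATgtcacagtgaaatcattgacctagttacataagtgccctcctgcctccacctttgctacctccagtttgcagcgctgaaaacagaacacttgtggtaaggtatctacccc

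The first base of the octamer lay 45 bases before the start site in Vpreb3, 130 in Blnk, 72 in Tlr9 and 68 in Ccr6. Among the other called genes with an octamer were Cnr2 and Hdac9, at 48 and 49 bases before the start site, and Prkcb, at 70. In the rest of the 12 ranked genes, its first base lay further off. It was from 83 to 206 bases before the start site, as in Lpcat1 at 122. Other genes that hold an octamer are not described.

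Downstream of Ras, 28.6% of the MAP kinase cascade members tested were called, against 18.5% of all genes tested. Of the 35 tested, 6 were higher and 4 lower in B cells (median 0.06, -0.03 under upper-quartile scaling), or 5, 6, 6 and 5 higher and 2, 2, 2 and 3 lower without each library in turn. Map4k1, a negative regulator of antigen receptor signalling, had 453 and 502 CPM in B cells against 133 and 140.4 in T cells (log2 difference 1.80 ± 0.15, adjusted p = 0.00566). Map2k1, the kinase of ERK, had 178 and 148 CPM in B cells against 68.2 and 64.5 in T cells (log2 difference 1.29 ± 0.15, adjusted p = 0.00985). Of the p38 kinases, Mapk11 had 90.4 and 104 CPM in B cells against 31.6 and 39.9 in T cells (log2 difference 1.44 ± 0.17, adjusted p = 0.0104). Mapk12 had 14.1 and 17.9 CPM in B cells against 2.13 and 3.28 in T cells (log2 difference 2.56 ± 0.33, adjusted p = 0.0127). These are neighbours on chromosome 15, 905 bases apart, and Hdac10, also higher in B cells (2.00 ± 0.15), lies 1884 bases from Mapk12. Against these stood inhibitors of Ras signalling that were lower in B cells: Spry1 had 5.84 and 5.47 CPM in B cells against 25.8 and 18.9 in T cells (log2 difference -1.98 ± 0.25, adjusted p = 0.0123). Spred2 had 5.16 and 5.79 CPM in B cells against 21.6 and 16.4 in T cells (log2 difference -1.79 ± 0.25, adjusted p = 0.0156).

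Phosphatases that reverse tyrosine phosphorylation were called in both directions: of the 35 tested, 7 were higher and 6 lower in B cells (median -0.39), or 6, 5, 9 and 7 higher and 3, 6, 4 and 9 lower without each library in turn. Ptprj (CD148), which acts on Src kinases, had 186 and 175 CPM in B cells against 8.64 and 17.4 in T cells (log2 difference 3.79 ± 0.36, adjusted p = 0.00707). Ptpn22, which restrains T cell receptor signalling, had 60.8 and 67.5 CPM in B cells against 205 and 189 in T cells (log2 difference -1.62 ± 0.14, adjusted p = 0.00551), with both T cell libraries above both B cell libraries. Dusp16 and Dusp3, dual-specificity phosphatases, stood at 2.95 ± 0.29 and 4.40 ± 0.53, and Ptpn14 at 4.37 ± 0.54. Ubash3b, a phosphatase of Syk and ZAP-70, had 8.64 and 11.2 CPM in B cells against 31.1 and 36.7 in T cells (log2 difference -1.77 ± 0.22, adjusted p = 0.0113). Ptprc, which encodes CD45, had 941 and 826 CPM in B cells against 1337 and 1250.0 in T cells (adjusted p = 0.102), so that the pan-leukocyte phosphatase was not called.

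Enzymes of phosphoinositides were called in both directions: of the 35 tested, 10 were higher and 5 lower in B cells (median 0.21), or 4, 5, 9 and 3 higher and 3, 3, 3 and 6 lower without each library in turn. Inpp4b, which removes the 4-phosphate of a PI3K product, had 22.2 and 20.0 CPM in B cells against 118 and 109.5 in T cells (log2 difference -2.43 ± 0.13, adjusted p = 0.00231). Inpp5b had 24 and 34.3 CPM in B cells against 90.1 and 79.8 in T cells (log2 difference -1.54 ± 0.21, adjusted p = 0.0142). Inpp1 stood at -1.52 ± 0.23. Phlpp2, a phosphatase of AKT, had 21.8 and 21.8 CPM in B cells against 6.91 and 6.13 in T cells (log2 difference 1.74 ± 0.20, adjusted p = 0.0103), with a direction opposite to that of Inpp4b. Itpr1, a calcium channel of the endoplasmic reticulum, stood at 1.12 ± 0.20 and lost its call without B cell library 1 (adjusted p = 0.0726).

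Cyclic AMP is made by adenylyl cyclases and broken down by phosphodiesterases, and members of this list were called in both directions. Of the 23 tested, 4 were higher and 4 lower in B cells (median -0.12), or 3, 1, 2 and 3 higher and 2, 3, 4 and 5 lower without each library in turn. Pde4a had 20.8 and 19.1 CPM in B cells against 2.03 and 2.64 in T cells (log2 difference 3.09 ± 0.26, adjusted p = 0.00566). Pde3b had 20.9 and 22.7 CPM in B cells against 94.5 and 76.9 in T cells (log2 difference -1.97 ± 0.16, adjusted p = 0.00507). Adcy6, a cyclase, had 0.561 and 3.72 CPM in B cells against 36.1 and 31.7 in T cells (log2 difference -3.97 ± 0.75, adjusted p = 0.0295). For Adcy6 B cell library 3 lay above library 1, and for both phosphodiesterases the libraries of a cell type were alike. Adcy3 (-1.30 ± 0.19) lost its call without B cell library 1 (adjusted p = 0.0527). Prkacb (-0.91 ± 0.13), a catalytic subunit of protein kinase A, lost it without B cell library 1 or 3 (adjusted p up to 0.0654).

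Receptors for lipids, nucleotides and metabolites couple to G proteins and guide lymphocytes within the spleen. Of the 36 tested, 5 were higher and 9 lower in B cells (median -0.76), or 3, 3, 4 and 3 higher and 5, 7, 6 and 8 lower without each library in turn. S1pr3, a receptor for sphingosine 1-phosphate on marginal zone B cells, had 47.7 and 31.4 CPM in B cells against 0.102 and 1.27 in T cells (log2 difference 5.84 ± 0.79, adjusted p = 0.0140). Cnr2, the cannabinoid receptor of immune cells, had 193 and 161 CPM in B cells against 27.1 and 27.5 in T cells (log2 difference 2.69 ± 0.15, adjusted p = 0.00249). The exporter of the S1pr3 ligand, Spns2, had 44.9 and 51.8 CPM in B cells against 1.32 and 0.211 in T cells (log2 difference 5.94 ± 0.63, adjusted p = 0.00870). The 3 genes were thus near 0 or low in T cells. In the other direction Ptger2, a prostaglandin E2 receptor, had 0.673 and 0.765 CPM in B cells against 7.01 and 8.45 in T cells (log2 difference -3.40 ± 0.37, adjusted p = 0.00912). Cysltr2, a leukotriene receptor, stood at -3.08 ± 0.42 and lost its call without B cell library 3 (adjusted p = 0.0577).

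RGS proteins shorten G protein signals by speeding GTP hydrolysis. Among G protein subunits and RGS proteins, of the 33 tested, 3 were higher and 6 lower in B cells (median 0.14), or 1, 0, 3 and 3 higher and 4, 4, 6 and 6 lower without each library in turn. Rgs10 had 31.0 and 37.0 CPM in B cells against 174 and 157 in T cells (log2 difference -2.28 ± 0.15, adjusted p = 0.00334). Rgs3 had 25.8 and 27.8 CPM in B cells against 102 and 101 in T cells (log2 difference -1.92 ± 0.12, adjusted p = 0.00290). Rgs11 had 1.57 and 3.83 CPM in B cells against 20.5 and 21.8 in T cells (log2 difference -2.96 ± 0.45, adjusted p = 0.0180). All 3 were above the B cell libraries in both T cell libraries. Rgs16 had 2.13 and 2.84 CPM in B cells against 49.1 and 13.6 in T cells (log2 difference -3.65 ± 0.72, adjusted p = 0.0325), with the T cell libraries far apart, and lost its call without B cell library 1 or 3 (adjusted p up to 0.0816). Towards B cells, Rgs18 (2.80 ± 0.64) lost its call without B cell library 1 or 3 (adjusted p up to 0.112). Gngt2 (1.61 ± 0.27) lost it without B cell library 3 (adjusted p = 0.0664). Gnaq (1.22 ± 0.26) lost it without any 1 of the libraries (up to 0.179).

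Semaphorins and ephrins are guidance ligands that lymphocytes share with neurons. Of the 20 tested, 7 were higher and 4 lower in B cells (median 0.56), or 5, 5, 7 and 7 higher and 4, 4, 2 and 4 lower without each library in turn. Sema7a had 41.8 and 38 CPM in B cells against 4.98 and 3.49 in T cells (log2 difference 3.23 ± 0.24, adjusted p = 0.00430). Sema4b had 195 and 186 CPM in B cells against 66.6 and 55.6 in T cells (log2 difference 1.64 ± 0.15, adjusted p = 0.00629). Plxnd1, a semaphorin receptor, had 42.9 and 33.2 CPM in B cells against 9.76 and 7.40 in T cells (log2 difference 2.15 ± 0.24, adjusted p = 0.00985). These were higher in both B cell libraries. Nrp1, a coreceptor of regulatory T cells, had 0.337 and 1.97 CPM in B cells against 25.4 and 17.1 in T cells (log2 difference -4.18 ± 0.73, adjusted p = 0.0248). Ephb6, a receptor without kinase activity, had 0.449 and 3.61 CPM in B cells against 41.8 and 31.0 in T cells (log2 difference -4.15 ± 0.81, adjusted p = 0.0317). Sema4a (2.69 and 20.9 against 163 and 197 CPM; -3.93 ± 0.91) and Sema4f (0.225 and 3.61 against 35.8 and 34.8 CPM; -4.19 ± 0.93) lost their calls without T cell library 1 (adjusted p = 0.0547 and 0.0529).

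Ligands and receptors of the TNF superfamily were more often lower in B cells, and of the 39 tested, 6 were higher and 16 lower in B cells (median -0.97), or 4, 4, 4 and 5 higher and 16, 16, 14 and 16 lower without each library in turn. Of the ligands, Tnfsf11, which encodes RANKL, had 0.561 and 0.984 CPM in B cells against 18.7 and 16.3 in T cells (log2 difference -4.47 ± 0.37, adjusted p = 0.00517). Tnfsf8 had 0.225 and 1.75 CPM in B cells against 34.3 and 41.3 in T cells (log2 difference -5.23 ± 0.71, adjusted p = 0.0140). Of the receptors, Cd27 had 1.80 and 17.8 CPM in B cells against 162 and 255 in T cells (log2 difference -4.41 ± 1.02, adjusted p = 0.0474). Tnfrsf25 had 0.673 and 5.14 CPM in B cells against 52.0 and 54.4 in T cells (log2 difference -4.18 ± 0.81, adjusted p = 0.0311). Fas, the death receptor, had 7.97 and 8.85 CPM in B cells against 25.4 and 23.9 in T cells (log2 difference -1.55 ± 0.19, adjusted p = 0.0112). In all 5 the T cell libraries stood above both B cell libraries. Towards B cells were the survival receptors Tnfrsf13c (BAFF receptor), with 285 and 219.8 CPM in B cells against 3.76 and 6.55 in T cells, and Tnfrsf13b (TACI), with 232 and 253 CPM in B cells against 34.1 and 30.9 in T cells. Birc3, a ubiquitin ligase of the receptors' signalling complex, had 209 and 239 CPM in B cells against 73.9 and 70.6 in T cells (log2 difference 1.63 ± 0.14, adjusted p = 0.00572).

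The Notch receptors themselves were divided. Notch2, which marginal zone B cells depend on, had 188 and 160.1 CPM in B cells against 48.4 and 37.6 in T cells (log2 difference 2.02 ± 0.18, adjusted p = 0.00638). Notch1, which T cell development depends on, had 22.9 and 32.0 CPM in B cells against 180.3 and 122 in T cells (log2 difference -2.46 ± 0.28, adjusted p = 0.00968). Neither lineage was without the other receptor. Of the 32 tested, 4 were higher and 5 lower in B cells (median 0.03, -0.06 under upper-quartile scaling), or 2, 2, 3 and 2 higher and 1, 4, 2 and 4 lower without each library in turn. Hes1, a target gene of Notch, had 67.8 and 51.8 CPM in B cells against 2.03 and 2.64 in T cells (log2 difference 4.67 ± 0.26, adjusted p = 0.00258). Lfng, which adds a sugar to Notch, had 36.7 and 66.7 CPM in B cells against 145 and 279.9 in T cells (log2 difference -2.04 ± 0.44, adjusted p = 0.0411) and lost its call without B cell library 1 (adjusted p = 0.0777). Hes5 had 6.74 and 5.68 CPM in B cells against 1.32 and 0.845 in T cells (2.5 ± 0.41) and lost its call without any library but T cell library 1 (adjusted p up to 0.0825).

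Among the Wnt and TGF-beta pathways, of the 42 tested, 1 was higher and 9 lower in B cells (median -0.29), or 1, 0, 0 and 1 higher and 5, 7, 6 and 9 lower without each library in turn. Eng, or endoglin, had 2.36 and 3.06 CPM in B cells against 15.2 and 12.6 in T cells (log2 difference -2.35 ± 0.29, adjusted p = 0.0118), Acvrl1, a receptor of the same family, had 1.35 and 4.59 CPM in B cells against 21.2 and 24.2 in T cells (log2 difference -2.93 ± 0.57, adjusted p = 0.0319), and the coreceptor gene Tgfbr3 had 0 and 2.08 CPM in B cells against 31.8 and 37.2 in T cells (log2 difference -5.03 ± 1.04, adjusted p = 0.0366). The 3 receptors were higher in both T cell libraries, and Tgfbr3 was at 0 in B cell library 1. The ligand gene Tgfb1 had 319.9 and 337 CPM in B cells against 146 and 169 in T cells (log2 difference 1.06 ± 0.15, adjusted p = 0.0164), in the opposite direction, and lost its call without B cell library 3 or T cell library 1 (adjusted p up to 0.0552).

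Enzymes that build surface glycans were called in both directions: of the 62 tested, 14 were higher and 9 lower in B cells (median 0.05, -0.04 under upper-quartile scaling), or 10, 9, 9 and 12 higher and 5, 6, 9 and 7 lower without each library in turn. Chst3, a sulfotransferase of chondroitin chains, had 302 and 323 CPM in B cells against 4.37 and 5.50 in T cells (log2 difference 5.98 ± 0.20, adjusted p = 0.00127). Hs3st1, a sulfotransferase of heparan chains, had 27.1 and 25.7 CPM in B cells against 0.712 and 0.317 in T cells (log2 difference 5.64 ± 0.38, adjusted p = 0.00352). B3gnt5, which starts lacto-series glycolipids, had 204 and 161 CPM in B cells against 12.1 and 14.3 in T cells (log2 difference 3.79 ± 0.19, adjusted p = 0.00212). B3gnt7 stood at 5.01 ± 0.40. These B cell enzymes were near the floor or low in T cells. St8sia1, the synthase of ganglioside GD3, had 0.561 and 4.59 CPM in B cells against 49.8 and 48.8 in T cells (log2 difference -4.25 ± 0.82, adjusted p = 0.0307). Galnt6 had 41.6 and 60.6 CPM in B cells against 236 and 224 in T cells (log2 difference -2.17 ± 0.22, adjusted p = 0.00805). St3gal4, a sialyltransferase, had 5.95 and 7.21 CPM in B cells against 41.3 and 31.5 in T cells (log2 difference -2.46 ± 0.24, adjusted p = 0.00705). The T cell members thus included enzymes of gangliosides, O-linked glycans and sialic acid.

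Tetraspanins organise receptors in the membrane, and of the 32 tested, 8 were higher and 5 lower in B cells (median -0.14), or 7, 8, 6 and 7 higher and 5, 4, 5 and 3 lower without each library in turn. Cd37 had 1673 and 1602 CPM in B cells against 289 and 334 in T cells (log2 difference 2.40 ± 0.18, adjusted p = 0.00433). Tspan2 and Tspan17 stood at 3.31 ± 0.40 and 3.10 ± 0.34. Tspan3 had 12.2 and 10.9 CPM in B cells against 34.0 and 35.6 in T cells (log2 difference -1.58 ± 0.17, adjusted p = 0.00878) and Flot1, a flotillin of lipid rafts, had 26 and 28.6 CPM in B cells against 58.9 and 59.1 in T cells (log2 difference -1.11 ± 0.14, adjusted p = 0.0117). Flot2, its partner, stood at -1.02 ± 0.14 and lost its call without B cell library 3 (adjusted p = 0.0648). Cd82 stood at -0.99 ± 0.15 and lost it without B cell library 1 or T cell library 4 (up to 0.0735).

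Lipid enzymes were called in both directions, 31.4% of the list that follows against 18.5% of all genes tested. Among the fatty acid, eicosanoid and phospholipid enzymes, of the 51 tested, 6 were higher and 10 lower in B cells (median -0.01), or 5, 4, 5 and 6 higher and 3, 7, 9 and 8 lower without each library in turn. Beside Scd1, described above, Pld4, a nuclease of endosomes named for its likeness to phospholipase D, had 332 and 374 CPM in B cells against 21.6 and 30.9 in T cells (log2 difference 3.75 ± 0.24, adjusted p = 0.00314). Lpgat1 and Lpcat1, acyltransferases of lysophospholipids, stood at 2.55 ± 0.12 and 1.86 ± 0.13. Faah, which breaks down anandamide, had 27.3 and 32.5 CPM in B cells against 139 and 136 in T cells (log2 difference -2.20 ± 0.14, adjusted p = 0.00310), a direction opposite to that of the cannabinoid receptor gene Cnr2. Lpin1 had 9.77 and 13.2 CPM in B cells against 35.2 and 33.8 in T cells (log2 difference -1.58 ± 0.21, adjusted p = 0.0139). Mboat1 stood at -4.14 ± 0.85.

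Among sphingolipid enzymes, of the 37 tested, 8 were higher and 6 lower in B cells (median 0.19), or 4, 3, 3 and 4 higher and 4, 3, 5 and 4 lower without each library in turn. Cerk, ceramide kinase, had 247 and 257 CPM in B cells against 41.8 and 46.2 in T cells (log2 difference 2.52 ± 0.14, adjusted p = 0.00249). Smpdl3a had 43.0 and 50.1 CPM in B cells against 147 and 137 in T cells (log2 difference -1.61 ± 0.14, adjusted p = 0.00552) and Cers6, a ceramide synthase, had 5.72 and 4.92 CPM in B cells against 17.2 and 18.9 in T cells (log2 difference -1.76 ± 0.23, adjusted p = 0.0127). Among cholesterol genes, of the 33 tested, 2 were higher and 2 lower in B cells (median -0.31), or 1, 1, 1 and 3 higher and 1, 1, 1 and 1 lower without each library in turn. Abca1, the exporter of cholesterol, had 39.9 and 44.9 CPM in B cells against 10.6 and 12.9 in T cells (log2 difference 1.85 ± 0.19, adjusted p = 0.00823). Npc2, which carries cholesterol out of lysosomes, had 147 and 173 CPM in B cells against 561 and 503 in T cells (log2 difference -1.74 ± 0.17, adjusted p = 0.00783). Most synthesis enzymes of cholesterol were not called.

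The list of surface enzymes and purinergic genes, which also holds other surface proteins such as Cd55 and Cd200, was split as well. Of the 30 tested, 7 were higher and 8 lower in B cells (median -0.24). The median was -0.17, -0.20, -0.255 and -0.13 without each library in turn. Cd38, which consumes NAD, had 143 and 162 CPM in B cells against 5.18 and 17.2 in T cells (log2 difference 3.77 ± 0.58, adjusted p = 0.0182). Nt5e (CD73), which makes adenosine from AMP, had 3.93 and 4.70 CPM in B cells against 45.4 and 48.5 in T cells (log2 difference -3.44 ± 0.19, adjusted p = 0.00258). P2rx7, a channel that extracellular ATP opens, had 3.37 and 5.36 CPM in B cells against 35.8 and 39.8 in T cells (log2 difference -3.11 ± 0.28, adjusted p = 0.00629). Enpp4 stood at -4.28 ± 0.67. The NAD enzyme was thus higher in B cells and the adenosine enzyme and ATP channel in T cells. Cd55, which protects cells from complement, had 428 and 375 CPM in B cells against 69.1 and 59.8 in T cells (log2 difference 2.64 ± 0.17, adjusted p = 0.00323).

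Of chromatin modifiers 12.6% were called, against 18.5% of all genes tested. Of the 95 tested, 6 were higher and 6 lower in B cells (median 0.02, -0.07 under upper-quartile scaling), or 2, 2, 4 and 3 higher and 1, 2, 2 and 3 lower without each library in turn. The called members included histone deacetylases in both directions. Hdac10 had 106 and 132 CPM in B cells against 29.5 and 29.7 in T cells (log2 difference 2.00 ± 0.15, adjusted p = 0.00433) and Hdac9, a class IIa enzyme, had 35 and 24.3 CPM in B cells against 4.17 and 2.43 in T cells (log2 difference 3.16 ± 0.37, adjusted p = 0.0103). Hdac4, of the same class, had 16.3 and 18.7 CPM in B cells against 43.6 and 44.5 in T cells (log2 difference -1.33 ± 0.16, adjusted p = 0.0113). So 2 enzymes of 1 class were called in opposite directions. Chd3, a remodeller of the NuRD complex, had 139 and 181 CPM in B cells against 501 and 376 in T cells (log2 difference -1.45 ± 0.23, adjusted p = 0.0207) and lost its call without B cell library 1 (adjusted p = 0.0532).

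Among ubiquitin ligases and SOCS proteins, of the 61 tested, 10 were higher and 9 lower in B cells (median -0.15), or 3, 6, 9 and 11 higher and 6, 5, 6 and 9 lower without each library in turn. The cytokine feedback genes Cish and Socs1 were lower in B cells: Cish had 2.13 and 3.72 CPM in B cells against 36.0 and 28.6 in T cells (log2 difference -3.46 ± 0.34, adjusted p = 0.00736). Socs1 had 11 and 13.0 CPM in B cells against 50.1 and 48.7 in T cells (log2 difference -2.04 ± 0.17, adjusted p = 0.00552). Peli1, a ligase of Toll-like receptor and T cell signalling, had 47.2 and 48.9 CPM in B cells against 165 and 138 in T cells (log2 difference -1.66 ± 0.14, adjusted p = 0.00566). All 3 separated without overlap. Trim7 had 188 and 192 CPM in B cells against 5.49 and 6.55 in T cells (log2 difference 4.98 ± 0.16, adjusted p = 0.00127). Klhl14, an adaptor of a ligase, had 37.4 and 27.9 CPM in B cells against 0.407 and 0.106 in T cells (log2 difference 6.91 ± 0.49, adjusted p = 0.00372). March1, which removes MHC class II from the surface, had 104 and 85.0 CPM in B cells against 0.102 and 5.28 in T cells (log2 difference 5.14 ± 1.10, adjusted p = 0.0396) and lost its call without B cell library 1 or 3 (adjusted p up to 0.0793).

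Interferon response genes leaned towards T cells, and of the 45 tested, 4 were higher and 13 lower in B cells (median -0.34), or 2, 2, 2 and 3 higher and 6, 8, 14 and 10 lower without each library in turn. Ifih1, a sensor of double-stranded RNA, had 3.48 and 5.47 CPM in B cells against 23.7 and 27.2 in T cells (log2 difference -2.5 ± 0.29, adjusted p = 0.0104). Gbp7 had 5.39 and 8.31 CPM in B cells against 28.1 and 31.0 in T cells (log2 difference -2.10 ± 0.27, adjusted p = 0.0126). Iigp1, a GTPase of cell-autonomous defence, had 0.673 and 2.95 CPM in B cells against 19.1 and 39.3 in T cells (log2 difference -4.0 ± 0.74, adjusted p = 0.0282), with T cell library 4 above T cell library 1 and B cell library 3 above B cell library 1. Oasl1 and Stat2 went the other way, with 39.4 and 47.7 CPM in B cells against 11.2 and 15.4 in T cells (log2 difference 1.71 ± 0.23, adjusted p = 0.0144) and 85.4 and 91.7 CPM in B cells against 43.5 and 44.6 in T cells (log2 difference 1.01 ± 0.11, adjusted p = 0.00949). The median of the list was -0.14 between the libraries numbered 1 and -0.53 between B cell library 3 and T cell library 4. It was 0.08 between B cell library 3 and T cell library 1, and -0.65 between B cell library 1 and T cell library 4. The sign was thus not the same in every pair. In the fit without T cell library 4 the list median was -0.08, and without T cell library 1 it was -0.62.

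Genes of cell division were the list with the fewest calls among those over 20 members, at 3.57%. Of the 28 tested, 1 was higher and 0 lower in B cells (median -0.15), or 0, 0, 0 and 1 higher and 0, 0, 0 and 0 lower without each library in turn. The called gene, Tk1, thymidine kinase, had 32.5 and 32.8 CPM in B cells against 15.9 and 17.4 in T cells (log2 difference 0.97 ± 0.16, adjusted p = 0.0223) and lost its call without any library but T cell library 4 (adjusted p up to 0.0885). At an unadjusted p under 0.05, 2 were higher and 4 lower, and DESeq2 called 1 in each direction. Among genes for antibody diversification and DNA end joining, of the 28 tested, 2 were higher and 1 lower in B cells (median -0.04), or 2, 1, 1 and 2 higher and 0, 1, 0 and 0 lower without each library in turn. Parp1, which senses DNA breaks, had 296 and 307 CPM in B cells against 93.6 and 81.0 in T cells (log2 difference 1.78 ± 0.15, adjusted p = 0.00552), with no overlap. Klf2, which keeps lymphocytes quiescent and recirculating, had 2247 and 1638 CPM in B cells against 743 and 746 in T cells (log2 difference 1.38 ± 0.22, adjusted p = 0.0211) and lost its call without T cell library 1 or 4 (adjusted p up to 0.0523). Foxo1, another quiescence factor, had 208 and 184 CPM in B cells against 255 and 198 in T cells (adjusted p = 0.508). Myc had 433 and 258 CPM in B cells against 180.2 and 118 in T cells (adjusted p = 0.0785).

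Markers of subsets were examined because each group was a whole population. Among markers of follicular, marginal zone and B-1 B cells, of the 23 tested, 13 were higher and 1 lower in B cells (median 2.29), or 11, 11, 13 and 14 higher and 4, 2, 1 and 1 lower without each library in turn. Fcer2a (CD23), of follicular B cells, had 734 and 920.1 CPM in B cells against 1.32 and 9.30 in T cells (log2 difference 7.28 ± 1.01, adjusted p = 0.0147). Ighd, the heavy chain of IgD, had 1813 and 2199 CPM in B cells against 9.86 and 30.6 in T cells (log2 difference 6.63 ± 0.69, adjusted p = 0.00823). Fcrl5, of marginal zone and B-1 cells, had 63.2 and 52.4 CPM in B cells against 0.305 and 1.58 in T cells (log2 difference 5.93 ± 0.62, adjusted p = 0.00844). Markers of follicular and of marginal zone and B-1 B cells were thus present, though 9 of the 23 were not called. The member lower in B cells was Ctla4 (log2 difference -3.10). Among germinal centre markers, of the 11 tested, 6 were higher and 1 lower in B cells (median 1.31), or 4, 1, 4 and 5 higher and 1, 1, 1 and 1 lower without each library in turn. Neil1, a DNA glycosylase, had 53.0 and 71.3 CPM in B cells against 25.5 and 24.6 in T cells (log2 difference 1.31 ± 0.19, adjusted p = 0.0169) and lost its call without B cell library 3 (adjusted p = 0.0534). Mef2b stood at 2.26 ± 0.39 and lost its call without B cell library 1 or 3 (log2 difference 2.39 and 2.14). The member lower in B cells was Fas, described above with the TNF superfamily, and it kept its call without each library in turn.

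Among markers of naive, memory and gamma delta T cells, of the 22 tested, 1 was higher and 15 lower in B cells (median -3.53), or 0, 0, 0 and 0 higher and 18, 18, 12 and 12 lower without each library in turn. Actn1, of naive T cells, had 8.87 and 25.4 CPM in B cells against 280.5 and 218 in T cells (log2 difference -3.86 ± 0.55, adjusted p = 0.0156). Trdc, the constant region of the delta chain, had 2.69 and 4.04 CPM in B cells against 55.0 and 44.8 in T cells (log2 difference -3.88 ± 0.28, adjusted p = 0.00374). Tcrg-C4, a gamma chain constant region, had 0.337 and 1.20 CPM in B cells against 12.7 and 12.6 in T cells (log2 difference -4.01 ± 0.57, adjusted p = 0.0156). Markers of naive and of gamma delta T cells were thus both present. Ccr7, the homing receptor for lymph nodes, had 847 and 711 CPM in B cells against 397 and 478 in T cells (log2 difference 0.83 ± 0.19, adjusted p = 0.0482), the member higher in B cells, and lost its call without any 1 of the libraries (adjusted p up to 0.163).

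Summed markers of macrophages, neutrophils and plasma cells differed more between libraries of a cell type than between the cell types. The 17 macrophage and monocyte markers summed to 58.7 and 367 CPM in the B cell libraries and 72.5 and 1097 in the T cell libraries. None of the 17 was called, 0 passed an unadjusted p under 0.05 and DESeq2 called 0. With a term for the libraries numbered 1 in the fit, 7 were called lower in B cells. At 0 counts were 2 of them in B cell library 1 and 4 in T cell library 1, and none in the other libraries. The 14 neutrophil markers summed to 98.8 and 23.7 CPM in B cells against 120.5 and 14.1 in T cells, with Mpo making up most of the sums in the libraries numbered 1. The 11 plasma cell markers summed to 2149 and 804 CPM in B cells against 1375 and 319 in T cells, with 1 called higher in B cells, or 5 with that term. Jchain, the joining chain of secreted antibody, had 1347 and 246 CPM in B cells against 994 and 56.3 in T cells (adjusted p = 0.821), high in both libraries numbered 1. Immunoglobulin genes took 3.77% and 2.23% of the B cell counts and 1.54% and 0.182% of the T cell counts.

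Natural killer markers summed to 25.5 and 76.6 CPM in B cells against 212 and 268 in T cells. Of the 12 tested, 0 were higher and 4 lower in B cells (median -2.25), or 0, 0, 0 and 0 higher and 6, 8, 3 and 2 lower without each library in turn. Gzmb, granzyme B, had 5.61 and 2.95 CPM in B cells against 23.4 and 19.3 in T cells (log2 difference -2.32 ± 0.37, adjusted p = 0.0206). Cd160 had 1.68 and 5.03 CPM in B cells against 27.6 and 25.4 in T cells (log2 difference -2.97 ± 0.52, adjusted p = 0.0249). Cytotoxic T cells share both genes. With the term for the libraries numbered 1, 8 of the list were lower in B cells. Of the erythroid markers 6 of 14 could be tested and 0 were called, 1 passed an unadjusted p under 0.05, DESeq2 called 0 and the fit with the term called 1 higher in B cells. Of the stromal markers Col3a1, Pdgfra, Sparc, Ccl19 and Ccl21a were at 0 in every library, and Pecam1, which lymphocytes also express, made up nearly all of the list's sum and lost its call without any 1 of the libraries (adjusted p up to 0.143). What part these cells had in any called difference was not tested.

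Called genes were also set in their order on the chromosomes. Among 12118 protein-coding and long noncoding genes tested, in their RefSeq order, 28 runs of 4 or more neighbours were called in the same direction, 17 higher in B cells and 11 in T cells. A run of 7 on chromosome 17 (34238905 to 34460734) held MHC class II genes with Btnl2, and a run of 7 on chromosome 7 (25376819 to 25658782) held Ceacam1, Ceacam2, Lipe and B3gnt8. The Fc receptor genes Fcamr, Pigr and Fcmr with Il24 lay in a run on chromosome 1 (130784706 to 130887411). The fatty acid receptor genes Ffar2, Ffar3 and Ffar1 lay beside Cd22 on chromosome 7 (30818031 to 30880342). On the T cell side a run on chromosome 1 (40222480 to 40551707) held Il1r1, Il1rl2, Il18r1 and Il18rap, receptors of the interleukin 1 family, and another (60405768 to 60915832) ended in Cd28 and Ctla4. Tnfrsf4 and Tnfrsf18 lay in a run on chromosome 4 (155992843 to 156031662). Without strand in the counting, overlap within a run cannot be told apart from separate expression of its genes.

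**Figure D4:**
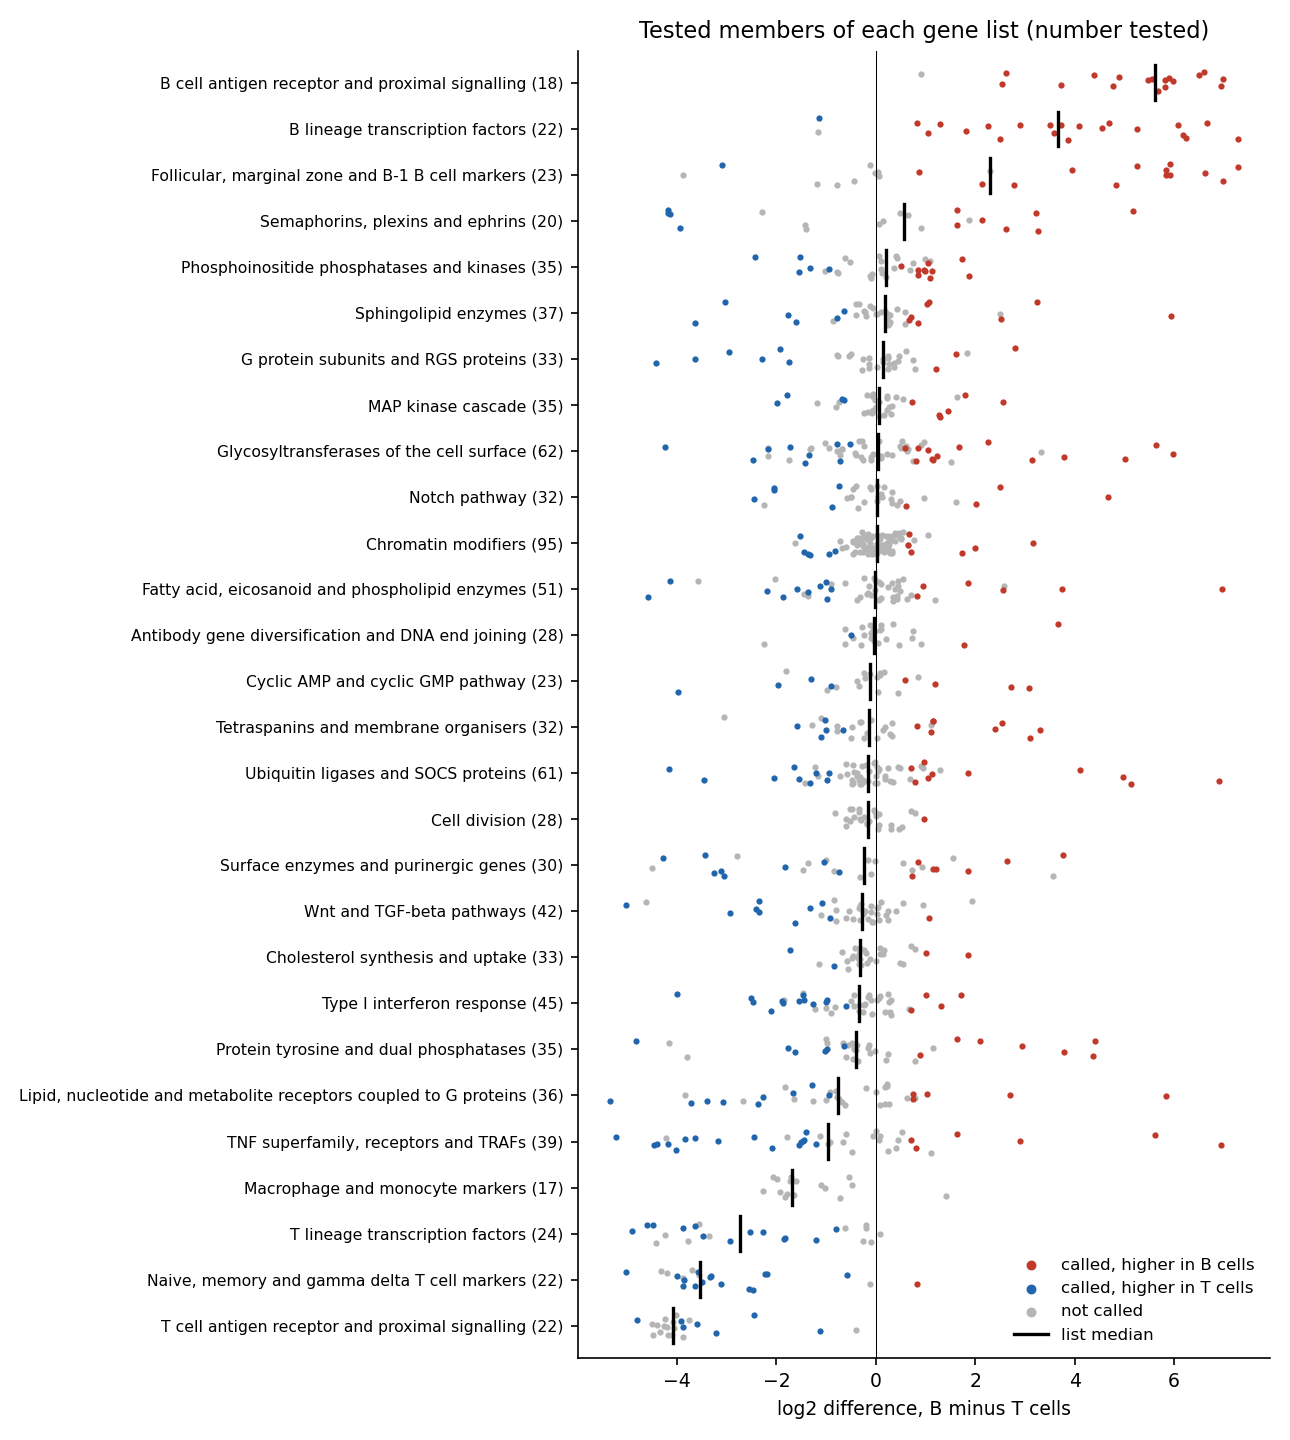
Log2 difference, B minus T cells, of each tested member of the lists shown, each with at least 17 tested members, with the number tested after the list's name and lists in order of their median (black bar). Red points were called higher in B cells, blue points higher in T cells, and grey points were not called. The receptor and transcription factor lists lie at the ends, with medians of 5.62 and -4.07 for the B and T cell receptor lists, and most signalling and enzyme lists have medians near 0 with called members on both sides.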

How the data were processed

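Poly-A RNA libraries (TruSeq RNA v2, paired-end) of B6 spleen B and T cells were used; ribosome footprint files of the series were not analysed here. The authors deposited whole-number counts per Ensembl gene for each library. Bowtie2, TopHat, HTSeq, FastQC and mm10 are named in the submitters' processing notes, while versions, annotation and use of strand are not given in the sources. Symbols were taken from a RefSeq-based table for 53620 of 53801 identifiers, and 1298 of 1299 list genes matched.

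Counts were fitted with edgeR 4.0.16 in R 4.3.3 (TMM scaling, filterByExpr with a minimum count of 10 and a minimum total of 15, quasi-likelihood test, Benjamini-Hochberg threshold 0.05, 2 residual degrees of freedom). The count test was tested on simulated data. No library was a repeat of another: within a cell type, chi-square per degree of freedom was 20.9 for B and 29.4 for T cells. Members and the 48 gene lists were chosen with earlier results of these data known. Named were the 15 protein-coding genes with the largest called differences in each direction without overlap and with at least 10 CPM, up to 4 called members per list and direction with at least 5 CPM, all members of the paralogue families, a set of reference genes, and the 6 genes with the largest difference between libraries in each direction; the text gives a part of these. Dapp1 and Spic were named after their values were seen. Alternatives were RLE and upper-quartile scaling, DESeq2 1.42.0, limma 3.58.1 voom, other filters and gene sets, a test against a 1.5-fold change, a term for the libraries numbered 1, and leaving out each library. Added after seeing the data were counts of differences of at least 5 without each library. So were list medians of 1 B cell library against 1 T cell library. Promoter windows came from RefSeq. Some listed genes and the results that need them are not reported here.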

Additional observations from a re-analysis of the deposited data

How the results depend on the processing

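No paired analysis was possible because the labels' numbers match in 1 pair alone, but a term that sets both libraries numbered 1 against the others could be fitted. Higher and lower in B cells were 1310 and 1262 genes. These counts were 822 and 687 in the test against a 1.5-fold change. They were 917 and 801 with a mean of at least 10 CPM, a setting that tests 9127 genes. With the term for the libraries numbered 1 they were 1822 and 1933, and the cause was not tested. Leaving out each library gave 737 to 1090 higher and 698 to 954 lower genes, with fewer libraries in each fit. Upper-quartile scaling moved the median of all genes by -0.09 and gave 1191 higher and 1462 lower, or 44.9% of calls higher against 50.9%. DESeq2 called 1542 and 1602, and voom 1377 and 1412. Of 242 named genes called, 162 kept the call without each library in turn, and the 80 others kept their sign. The named genes whose sign turned were not called. With upper-quartile scaling Vav3 was at -0.0499 and Rasa2 at -0.0282. Over the fits without each library, log2 differences ran over -0.12 to 0.20 for Vav3, -0.27 to 0.0250 for Sos1, -0.0935 to 0.21 for Rasa2, -0.15 to 0.14 for Rasa3, -0.30 to 0.15 for Ikzf5, -1.60 to 1.51 for Tcf7l2, -0.21 to 0.45 for Pik3r3, -1.09 to 3.82 for Jchain and -0.50 to 0.20 for Actb. With 2 libraries per group and 2 residual degrees of freedom, a gene that misses the threshold is not shown to be equal.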
